A study of Mus musculus with 12 samples.

Results

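The cytosolic RNA and DNA sensing pathway is described here through 10 genes chosen by name, of 47729 genes in the count matrix. They are the RNA sensors Ddx58 (RIG-I), Ifih1 (MDA5), Dhx58 (LGP2) and Eif2ak2 (PKR), the RNA adaptor Mavs, the DNA sensor Mb21d1 (cGAS), its adaptor Tmem173 (STING), the kinases Tbk1 and Ikbke (IKK epsilon), and the DNA exonuclease Trex1. Each symbol was found in 1 row, and all 10 genes were among the 15232 with enough counts to be tested. The libraries hold polyA RNA of peritoneal macrophages from C57BL/6 mice, in 4 groups of 3. For the TG groups, 3% thioglycollate, an irritant broth that draws monocytes into the peritoneum, was given once, 4 days before collection. For the IL4c groups, 5 ug of IL-4 bound to 25 ug of an anti-IL-4 antibody was injected 2 times and cells were taken 2 days after the second dose. Cells from a 7 ml lavage were seeded at 3000000 per well, the wells were washed after 2 h, and the attached cells were then kept for 24 h untreated or with 20 ug/ml SPARC, a secreted matricellular glycoprotein. The labels name no control protein for the SPARC wells, no age or sex, and do not say whether replicates came from separate mice, so the p-values measure the spread between these libraries, which may be technical. The comparisons ask how SPARC changed RNA levels after each injection, and how the injections differed.

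RIG-I and MDA5 bind viral or misplaced RNA in the cytosol and signal through MAVS on mitochondria, and LGP2, which lacks the signalling domains, tunes both. cGAS makes a cyclic dinucleotide when it meets DNA in the cytosol, and STING relays that signal from the endoplasmic reticulum. Both branches meet at TBK1 and IKK epsilon, which phosphorylate IRF3 and IRF7 so that type I interferon genes are transcribed. TREX1 degrades cytosolic DNA and so holds cGAS in check. PKR phosphorylates the translation factor eIF2 alpha when it binds double-stranded RNA. In macrophages many of these genes are themselves known as interferon-stimulated genes.

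Depth was 31501941 to 42288785 counts per library, and the lowest count of any of the 10 genes in any library was 197, for Mb21d1. A set of 7 macrophage markers summed to between 12655 and 34601 CPM (read counts scaled to library size, with sizes adjusted by the trimmed mean of M values). Both TG libraries numbered 1 stood apart: 10 B cell markers summed to 984 CPM in the untreated and 562 CPM in the SPARC library, whereas the remaining TG libraries had 127 to 174 CPM and the IL4c libraries 47.3 to 207 CPM. Their 9 T and NK cell markers summed to 30.5 and 33.2 CPM, whereas the remaining TG libraries had 3.70 to 5.37 CPM. Results that rest on this pair are given with and without it. The B cell sum was also lower with SPARC in every numbered pair. In IL4c libraries it was 90.0 to 207 CPM untreated and 47.3 to 86.7 CPM with SPARC. Of the 10 B cell markers Cd22 fell there by 1.03 on the log2 scale and 9 did not pass, while in TG cells 0 passed. With SPARC, 9 neutrophil markers summed to 26.9 to 53.2 CPM against 6.96 to 11.7 CPM in untreated wells, most of it S100a8, while S100a9 stayed at or below 0.0914 CPM, Ly6g at or below 0.0287 CPM and Mpo at or below 0.129 CPM in all 12 libraries. Of the 9, 2 were tested. S100a8 rose by 2.07 on the log2 scale after each injection. Camp, at or below 2.10 CPM, rose by 4.42 in IL4c cells, and its 3.46 in TG cells did not pass. In the IL4c libraries with SPARC the macrophage sum was 12655 to 18542 CPM, against 20245 to 27678 CPM without, while the 7 macrophage genes went both ways there: Fcgr1 rose by 4.26 on the log2 scale, Lyz2 (−1.28) and Mertk (−1.61) fell, 4 did not pass and the median was −0.01. In the same libraries 7 mesothelial and fibroblast markers summed to 60.4 to 112 CPM against 6.23 to 16.8 CPM. Of these Dcn rose there by 3.68 on the log2 scale and the other 4 tested did not pass. In each of those SPARC libraries 4 to 6 of the 7 were under 1 CPM. The TG pair numbered 1 had 5.23 and 24.5 CPM of that last sum, against 96.8 to 185 CPM in the remaining TG libraries. Of 6 plasmacytoid dendritic cell markers, Siglech and Klk1 did not exceed 0.118 and 0.0788 CPM, while Spib reached 80.1 CPM and Cox6a2 29.5 CPM. The 6 summed to 86.6 and 48.7 CPM in the TG pair numbered 1, against 6.20 to 10.2 CPM in the remaining TG libraries. Spib alone made up 80.1 CPM of the first sum, in the untreated library that also had the highest B cell sum, so this is not a separate sign of plasmacytoid cells. With SPARC in IL4c cells Cox6a2 rose by 1.51 on the log2 scale, and the other 3 tested did not pass. The part of these shifts in the results was not tested, and in bulk RNA fewer cells of a type cannot be told apart from less RNA per cell.

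SPARC wells held more RNA of the 4 RNA sensors after either injection, and of the DNA sensor Mb21d1 at a passing level in IL4c cells, while the adaptors Mavs and Tmem173 did not pass the test after either one. In TG macrophages 6 of the 10 genes rose and 0 fell, where 6.73% of all tested genes rose and 4.52% fell (11.3% either way). In IL4c macrophages 8 of 10 rose and 0 fell, where 15.1% of all tested genes rose and 12.7% fell (27.8% either way). Calls are from edgeR's quasi-likelihood test at a Benjamini-Hochberg adjusted p under 0.05 over all tested genes. The median log2 fold change over the 10 genes was 0.94 in TG and 1.14 in IL4c cells, beside −0.03 and −0.00 over all tested genes. The CPM ranges of SPARC and untreated libraries did not overlap for 7 genes in TG and 7 in IL4c cells, where this held for 30.4% and 50.4% of all tested genes. With the 2 TG groups fitted without the IL4c libraries, the count in TG was 3, as Ddx58, Tbk1 and Trex1 had adjusted p of 0.0605, 0.0741 and 0.131. Over all 23 alternatives these 3 adjusted p values had highest values of the same size and lowest values of 3.68e-08, 2.44e-05 and 0.000110.

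**Figure D1:**
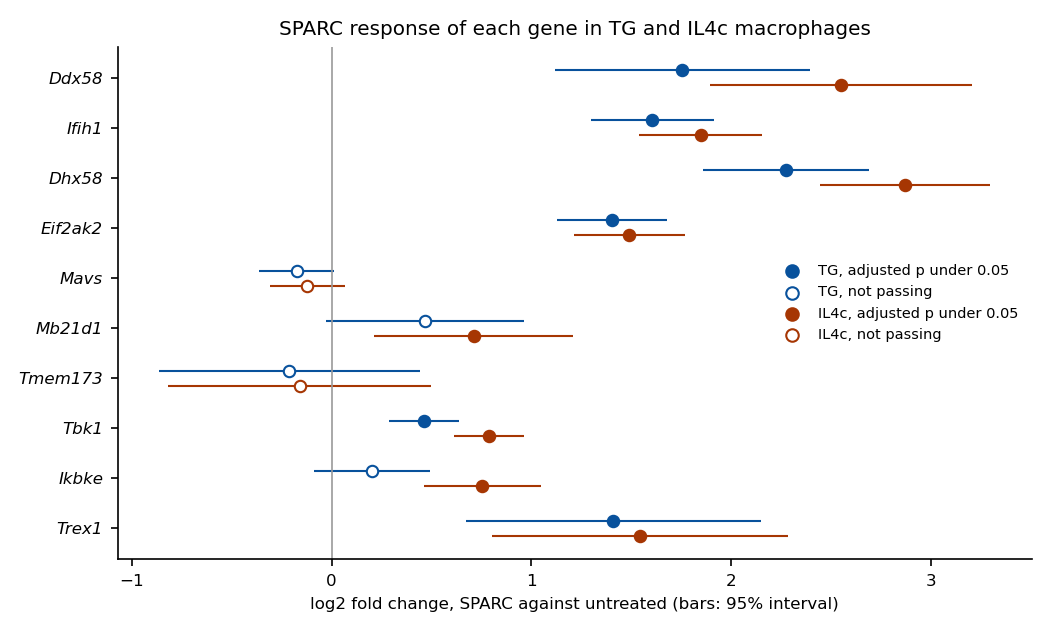
Log2 fold change of SPARC against untreated wells for the 10 genes, in TG (blue) and IL4c (brown) macrophages, with bars for the 95% interval of the edgeR fit; filled points passed at an adjusted p under 0.05. Dhx58 has the highest point in both injections, at 2.28 and 2.87, and the intervals of Mavs and Tmem173 include 0 in both.

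The promoters were searched because the RNA sensors rose together, so the choice followed the results. RefSeq promoters on GRCm38.p6, 250 bases before to 50 after each start site, were matched by symbol for 8 of the 10 genes, in 9 promoters; Dhx58 and Tmem173 had no match. They were searched for the core of the interferon-stimulated response element, GAAANNGAAA, on both strands, and for that of the gamma-activated site, TTCNNNGAA, which reads the same on both strands. The first was found in Ddx58, Ifih1 and Eif2ak2, that is in 3 of 8 genes, and in 3.44% of all 32851 promoters (3.99% of genes). The second was found in Eif2ak2 and in 8.30% of all promoters. Neither was found in Mavs, Mb21d1, Tbk1, Ikbke or the 2 promoters of Trex1. All of these genes but Mavs rose with SPARC at a passing level after at least 1 injection. The 30-base windows around the matches, all on the minus strand of the genome, are printed 5′ to 3′ with the match in capitals.
Ddx58, response element, chr4:40239804-40239833: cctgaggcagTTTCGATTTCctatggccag
Ifih1, response element, chr2:62646206-62646235: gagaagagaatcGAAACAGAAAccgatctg
Eif2ak2, response element, chr17:78882535-78882564: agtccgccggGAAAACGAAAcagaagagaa
Eif2ak2, gamma-activated site, chr17:78882731-78882760: ctgcagagctTTCCCAGAAtggaagccagg
The Ddx58 match lies on the opposite strand to the gene, at bases 3 to 12 counted from the RefSeq start, and the others read along the gene, at bases 33 to 42 in Ifih1 and 19 to 28 in Eif2ak2. These 3 matches fall in exons of the GENCODE annotation, untranslated ones for Ddx58 and Eif2ak2, whereas the gamma-activated match is 178 to 170 bases upstream of Eif2ak2. A match describes the letters only.

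Among the RNA sensors Ddx58, which recognises RNA with a 5′ triphosphate, is annotated at chr4:40203773-40239828 on the minus strand of GRCm38. In untreated TG wells it stood at 75.9, 37.6 and 35.0 CPM in replicates 1, 2 and 3, and with SPARC at 211, 142 and 149 CPM. In IL4c cells it stood at 44.7, 45.4 and 44.2 CPM untreated and at 219, 303 and 265 CPM with SPARC. Every SPARC library was above every untreated one, and among the untreated libraries only TG replicate 1 was high. Ddx58 rose 3.37-fold in TG (95% interval 2.17 to 5.25, adjusted p = 0.00580) and 5.86-fold in IL4c cells (3.72 to 9.23, adjusted p = 0.000339). Without both TG libraries numbered 1 its log2 fold change in TG was 2.02, against 1.75 with them.

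Ifih1, which recognises long double-stranded RNA, is annotated at chr2:62595798-62646255 on the minus strand. It stood at 55.3, 45.4 and 38.9 CPM in untreated TG wells and at 148, 144 and 133 CPM with SPARC. The IL4c libraries had 53.0, 57.2 and 49.3 CPM untreated and 164, 212 and 197 CPM with SPARC. The groups did not overlap after either injection. Ifih1 rose 3.04-fold in TG (2.46 to 3.76, adjusted p = 0.000305) and 3.60-fold in IL4c cells (2.90 to 4.45, adjusted p = 4.5e-05).

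Dhx58 is annotated at chr11:100694884-100704271 on the minus strand, overlapped by the antisense gene Dhx58os, which had at most 6 counts in any library. Untreated TG wells held 32.9, 25.4 and 19.5 CPM and SPARC wells 135, 123 and 118 CPM. Untreated IL4c wells held 19.6, 22.1 and 20.3 CPM and SPARC wells 129, 181 and 144 CPM. This put the lowest SPARC library at several times the highest untreated one. Dhx58 rose 4.84-fold in TG (3.63 to 6.46, adjusted p = 0.000283) and 7.32-fold in IL4c cells (5.45 to 9.83, adjusted p = 2.44e-05), the highest fold of the 10 genes in both.

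**Figure D2:**
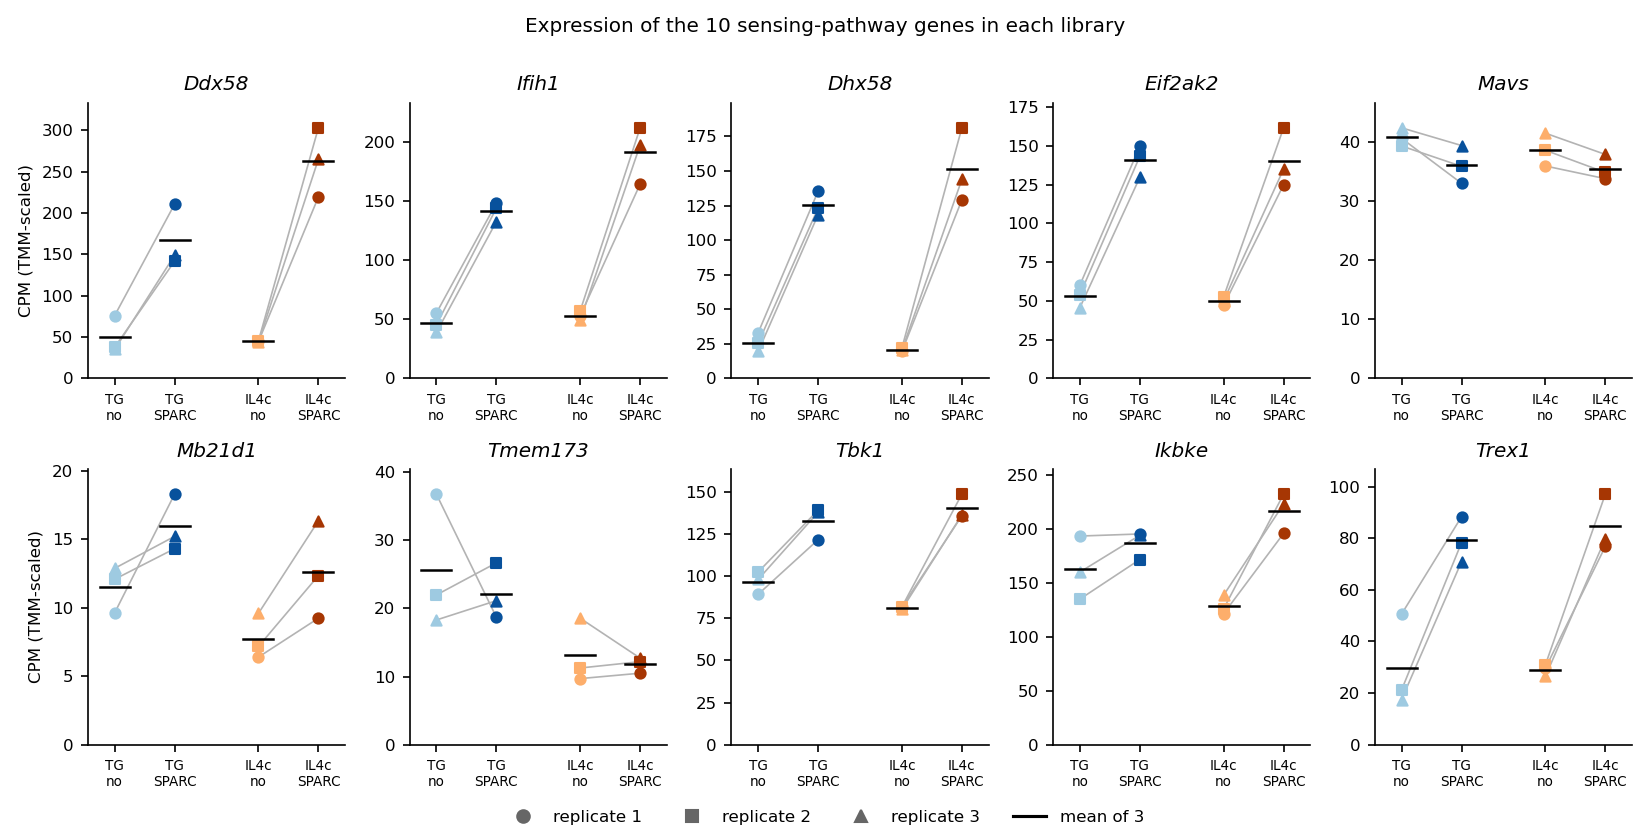
CPM of each of the 10 genes in each library, untreated and with SPARC, for TG (blue) and IL4c (brown) cells; grey lines join libraries of the same injection and number, and black bars are means of 3. The 3 helicases and Eif2ak2 separate by SPARC in both injections, Mavs stays between 33.0 and 42.4 CPM, and the untreated TG library numbered 1 is the highest untreated one for Ddx58, Dhx58, Eif2ak2, Tmem173, Ikbke and Trex1.

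Per transcript length, the 3 helicases together passed from a few times the level of their adaptor to more than 10 times. The sum of Ddx58, Ifih1 and Dhx58 in FPKM (fragments scaled to transcript length and library size, the deposited values) was 63.5, 37.1 and 31.8 in untreated TG libraries and 176, 141 and 141 with SPARC. In IL4c libraries it was 39.9, 38.6 and 38.2 untreated and 169, 225 and 196 with SPARC. Mavs is annotated at chr2:131234063-131248025 on the plus strand. It stood at 40.6, 39.3 and 42.4 CPM in untreated TG wells and 33.0, 35.9 and 39.4 CPM with SPARC, and at 36.0, 38.6 and 41.5 CPM in untreated IL4c wells and 33.8, 34.9 and 37.9 CPM with SPARC. Each numbered pair was lower with SPARC, in 3 of 3 pairs after each injection, but the groups overlapped and the log2 differences of −0.18 ± 0.08 (SE, adjusted p = 0.219) and −0.12 ± 0.08 (adjusted p = 0.314) did not pass. The 95% intervals allow a log2 change of −0.36 to 0.01 in TG and of −0.31 to 0.06 in IL4c cells. The ratio of the helicase sum to Mavs was 2.07 to 4.05 in untreated TG libraries and 10.2 to 14.8 with SPARC, and 2.65 to 3.24 in untreated IL4c libraries and 14.6 to 19.5 with SPARC.

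The make-up of the helicase sum differed too. Dhx58 held 29.4% to 37.2% of it in untreated TG libraries and 39.7% to 43.9% with SPARC, and 27.0% to 30.1% in untreated IL4c libraries and 35.8% to 39.5% with SPARC. Ifih1 held 25.8% to 31.1% in untreated TG libraries and 21.3% to 25.5% with SPARC, and 31.9% to 34.8% in untreated IL4c libraries and 21.3% to 23.7% with SPARC. For both genes the SPARC and untreated ranges did not overlap after either injection. The share of Ddx58 overlapped in TG libraries, at 31.7% to 44.7% untreated and 31.1% to 39.0% with SPARC. In IL4c libraries it did not overlap, at 35.6% to 38.2% untreated and 39.2% to 40.4% with SPARC. These shares are a description with 3 libraries a group, where an exact permutation test cannot go below p = 0.1.

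**Figure D3:**
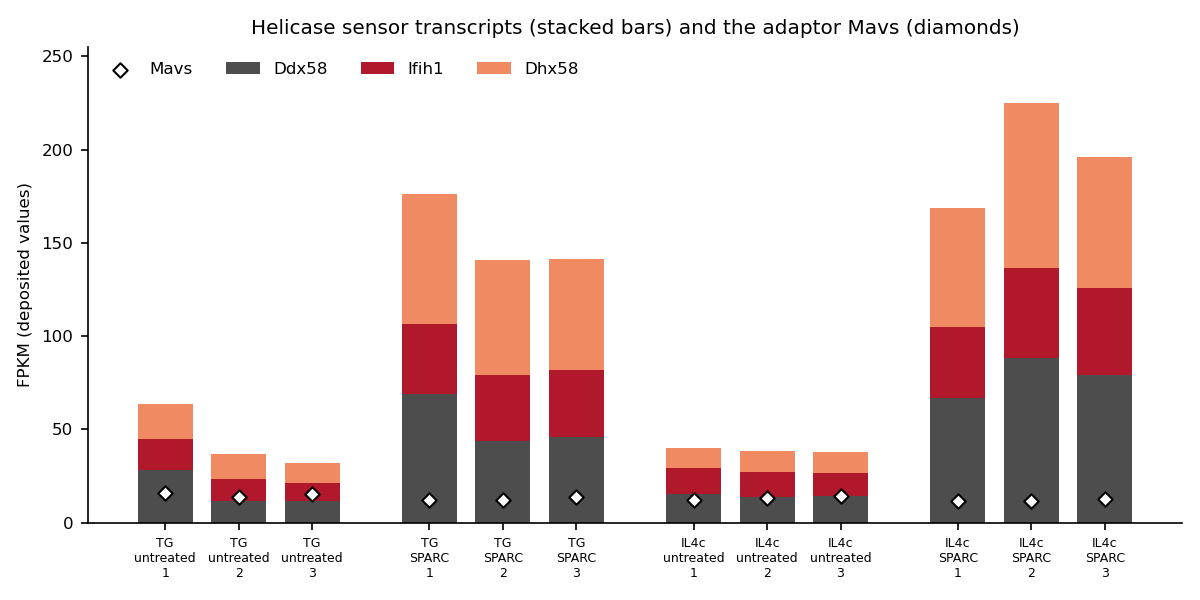
FPKM of Ddx58, Ifih1 and Dhx58 stacked for each library, with Mavs as diamonds, by group and replicate number. The stacks reach 31.8 to 63.5 FPKM in untreated wells and 141 to 225 FPKM with SPARC, while Mavs lies between 11.5 and 15.7 FPKM throughout.

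Eif2ak2, the RNA-activated kinase of eIF2 alpha, is annotated at chr17:78852564-78882573 on the minus strand. It stood at 60.1, 54.0 and 45.6 CPM in untreated TG wells and 150, 143 and 130 CPM with SPARC. In IL4c cells it stood at 47.2, 52.7 and 50.1 CPM untreated and 125, 162 and 135 CPM with SPARC. The groups were apart after both injections, and the ranges of the 2 injections overlapped in both kinds of well. Eif2ak2 rose 2.64-fold in TG (2.18 to 3.20, adjusted p = 0.000328) and 2.81-fold in IL4c cells (2.32 to 3.405, adjusted p = 7.36e-05). The difference of the log2 responses was 0.09, with a 95% interval of −0.30 to 0.47. The gene Gm26637 overlaps it on the opposite strand with 29 to 114 counts per library.

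Other eIF2 alpha kinases and genes of the stress response after them were a list of 10, of which 0 passed in TG and 5 rose in IL4c cells with SPARC, and 0 fell. Over all tested genes 6.73% rose and 4.52% fell in TG (11.3% either way). In IL4c cells 15.1% of them rose and 12.7% fell (27.8% either way). Ddit3, the stress-induced transcription factor CHOP, had 27.8 ± 12.1 CPM in untreated TG wells (SD, n = 3) and 21.5 ± 6.32 CPM with SPARC, and 36.4 ± 5.79 CPM in untreated IL4c wells and 113 ± 9.004 CPM with SPARC. Its log2 fold change was −0.37 ± 0.33 in TG (adjusted p = 0.538) and 1.63 ± 0.34 in IL4c cells (adjusted p = 0.00610). Ppp1r15a, a regulatory subunit that directs phosphatase to eIF2 alpha, had −0.07 in TG and rose by 1.14 ± 0.31 in IL4c cells (adjusted p = 0.0223). Atf4, the transcription factor translated when eIF2 alpha is phosphorylated, had 0.07 in TG and rose by 0.80 ± 0.26 in IL4c cells (adjusted p = 0.0452). The amino acid sensing kinase Eif2ak4 (0.53) and the adaptor Nck1 (0.41) were the other 2 that rose. The call in IL4c cells held in 23 of 23 alternatives for Ddit3 and Eif2ak4, 18 for Ppp1r15a, 15 for Nck1 and 10 for Atf4. The difference between the injections passed for 0 of the 10 in the fit with all libraries and no block. With the library number as a block within each injection it passed for Ddit3 (1.94, adjusted p = 0.0137) and Ppp1r15a (1.16, adjusted p = 0.0173). Over 22 alternatives that difference passed in 4 for Ddit3, 2 for Ppp1r15a and 1 for the kinase Eif2ak3, the last without both TG libraries numbered 1 (−0.41, adjusted p = 0.0444).

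In the DNA branch the sensor had the lowest level of the 10 genes per length. Mb21d1 is annotated at chr9:78430526-78443237 on the minus strand, as Cgas. It stood at 9.62, 12.1 and 12.9 CPM in untreated TG wells and 18.3, 14.3 and 15.2 CPM with SPARC, so the groups did not overlap, and pair 1 had the largest gap. In IL4c cells it stood at 6.39, 7.17 and 9.59 CPM untreated and 9.23, 12.3 and 16.3 CPM with SPARC. There the groups overlapped, since replicate 3 was high and replicate 1 low in both kinds of well, but all 3 pairs were higher with SPARC. Mb21d1 rose 1.64-fold in IL4c cells (1.16 to 2.31, adjusted p = 0.0388) and had 1.38-fold in TG (0.982 to 1.95, adjusted p = 0.213). With the replicate block it passed in TG as well, at a log2 fold change of 0.47 (adjusted p = 0.0496), over a range of 0.0496 to 0.554 among the alternatives. The IL4c call held in 12 of 23 alternatives (adjusted p 0.00777 to 0.135). It was lost without IL4c untreated replicate 1 or 2, without IL4c SPARC replicate 2 or 3, and when TG replicate 2 (untreated or SPARC) or TG replicate 3 with SPARC was left out, at adjusted p of 0.0528 to 0.135.

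Tmem173, the receptor of the cyclic dinucleotide, is annotated on chromosome 18, from 35733679 to 35740554 on the minus strand. It stood at 36.8, 22 and 18.3 CPM in untreated TG wells and 18.7, 26.7 and 21.1 CPM with SPARC. In IL4c cells it stood at 9.70, 11.3 and 18.6 CPM untreated and 10.5, 12.2 and 12.7 CPM with SPARC. SPARC and untreated libraries overlapped after both injections, and 2 of 3 pairs were higher with SPARC in each. The log2 differences were −0.21 ± 0.29 in TG (adjusted p = 0.707, 95% interval −0.86 to 0.44) and −0.16 ± 0.29 in IL4c cells (adjusted p = 0.728, −0.82 to 0.50). The sign in TG rested on replicate 1, as the value was 0.27 without both libraries of that number. Per length, Tmem173 was 2.60 to 3.27 times Mb21d1 in untreated IL4c libraries and 1.35 to 1.92 times with SPARC, while the TG ranges of 2.39 to 6.54 and 1.76 to 3.19 overlapped.

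The 2 kinases had lower folds than the RNA sensors. Tbk1 is annotated at chr10:121546455-121586787 on the minus strand. It stood at 89.2, 102 and 98 CPM in untreated TG wells and 122, 139 and 138 CPM with SPARC, and at 81.8, 81.8 and 80.4 CPM in untreated IL4c wells and 136, 149 and 136 CPM with SPARC. Replicates were within a narrow range, and no SPARC library was as low as an untreated one. Tbk1 rose 1.38-fold in TG (1.22 to 1.55, adjusted p = 0.00684) and 1.72-fold in IL4c cells (1.53 to 1.95, adjusted p = 0.000183).

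Ikbke, the inducible relative of Tbk1, is annotated at chr1:131254343-131279606 on the minus strand. It stood at 194, 135 and 160 CPM in untreated TG wells and 195, 172 and 194 CPM with SPARC. In IL4c cells it stood at 122, 126 and 139 CPM untreated and 196, 232 and 223 CPM with SPARC. The TG groups overlapped because untreated replicate 1 was as high as the SPARC libraries, and the IL4c groups did not overlap. Ikbke rose 1.69-fold in IL4c cells (1.38 to 2.06, adjusted p = 0.00262) and had 1.15-fold in TG (0.940 to 1.41, adjusted p = 0.373). In FPKM the ratio of Ikbke to Tbk1 was 1.71 to 2.93 in untreated and 1.59 to 2.12 in SPARC libraries of TG cells, and 2.00 to 2.24 and 1.82 to 2.04 in those of IL4c cells.

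Trex1, the exonuclease, is annotated at chr9:109057933-109059734 on the minus strand. All 1802 bases of it lie within Atrip on the same strand, so reads can belong to either gene, and its counts were fractional in 12 of 12 libraries. It stood at 50.6, 21.2 and 17.5 CPM in untreated TG wells and 88.3, 78.3 and 70.9 CPM with SPARC. In IL4c cells it stood at 29.6, 31.0 and 26.5 CPM untreated and 76.8, 97.1 and 79.8 CPM with SPARC. SPARC libraries were above all untreated ones, of which TG replicate 1 was the highest. Trex1 rose 2.66-fold in TG (1.59 to 4.43, adjusted p = 0.0248) and 2.91-fold in IL4c cells (1.74 to 4.87, adjusted p = 0.00758). The TG call was lost without TG untreated replicate 2 (adjusted p = 0.0608), TG SPARC replicate 2 (0.0521) or TG untreated replicate 3 (0.0597), over a range of 0.000110 to 0.131 among all alternatives, and without both libraries numbered 1 the log2 fold change was 1.97. Atrip was at 3.60 to 7.95 CPM, with log2 fold changes of −0.27 in TG and −0.11 in IL4c cells.

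Ordered by FPKM, Ikbke was first and Mb21d1 last in every group, and Tmem173 was next to last. In untreated TG libraries the means ran from 77.5 ± 18.8 FPKM for Ikbke (SD, n = 3) to 34.2 ± 0.981 for Tbk1, 32.4 ± 21.1 for Trex1, 17.3 ± 9.63 for Ddx58 and 15.9 ± 2.50 for Eif2ak2. Below these came Mavs at 15.01 ± 0.928, Dhx58 at 14.4 ± 4.06, Ifih1 at 12.5 ± 3.54, Tmem173 at 12.2 ± 5.20 and Mb21d1 at 3.20 ± 0.389 FPKM. From Tbk1 down to Tmem173 each neighbour's range overlapped the next. In untreated IL4c libraries Ikbke was at 56.0 ± 3.14 FPKM, Trex1 at 28.7 ± 2.06, Tbk1 at 26.8 ± 0.265, and Ddx58, Mavs, Ifih1 and Eif2ak2 lay together between 13.1 and 14.5 FPKM.

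With SPARC Dhx58 moved from rank 7 to rank 3 in TG and from rank 8 to rank 4 in IL4c libraries, while Tbk1 moved down to rank 5 in both. In TG libraries Trex1 at 80.9 ± 9.996 FPKM overlapped Ikbke at 82.5 ± 7.71, followed by Dhx58 at 63.8 ± 5.52 and Ddx58 at 52.8 ± 14.0. In IL4c libraries Ikbke at 90.0 ± 6.82, Trex1 at 83.9 ± 9.52, Ddx58 at 78.1 ± 10.7 and Dhx58 at 74.4 ± 12.9 FPKM overlapped as neighbours. Mavs had rank 8 with SPARC after both injections, at 12.7 ± 0.956 FPKM in TG and 12 ± 0.779 in IL4c libraries, and overlapped neither neighbour.

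Beyond the 10 genes, 83 other genes of the pathway in 7 roles were all tested. With SPARC 12 rose and 3 fell in TG cells and 27 rose and 10 fell in IL4c cells, and the medians of the log2 fold change were 0.05 and 0.13. Over all tested genes 6.73% rose and 4.52% fell in TG and 15.1% and 12.7% in IL4c cells, so the shares that fell were near the background. With the replicate block the TG counts were 19 and 8, where 14.3% of all tested genes rose and 13.1% fell (27.3% either way). In IL4c cells 18 fell with the block, where 22.4% of all tested genes did, 22.8% rose and 45.2% changed either way.

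Among 12 cofactors and ubiquitin ligases of the RNA sensors 1 rose and 0 fell in TG cells, and 4 rose and 3 fell in IL4c cells. For this and each later role, the shares of all tested genes were 6.73% rising and 4.52% falling in TG. In IL4c cells these shares were 15.1% and 12.7%. No role was tested as a set, and several of these small counts are near those shares. Ddx60, a helicase that aids RIG-I, had 15.1 ± 8.43 CPM in untreated TG wells and 63.9 ± 11.3 CPM with SPARC, and rose by 2.07 ± 0.33 on the log2 scale in TG (adjusted p = 0.00533) and by 2.84 ± 0.34 in IL4c cells. Zc3hav1, the zinc finger antiviral protein, rose by 0.56 ± 0.13 in IL4c cells, where the RNA helicases Ddx3x (−0.34) and Dhx9 (−0.29) and the PKR activator Prkra (−0.32) fell, with the calls of Dhx9 and Prkra held in 13 of 23 alternatives. Among 13 DNA sensors and STING partners 3 rose and 0 fell in TG, and 6 rose and 1 fell in IL4c cells. Zbp1, a sensor of Z-form nucleic acid, rose by 3.14 ± 0.51 in TG and by 4.40 ± 0.55 in IL4c cells, where it went from 14.3 ± 2.61 to 302 ± 37.2 CPM. Ifi204 rose by 1.48 ± 0.32 and 2.39 ± 0.33, and Surf4, which returns STING to the endoplasmic reticulum, by 0.54 ± 0.11 and 0.58 ± 0.11. The calcium sensor Stim1, which holds STING there, fell by 0.32 in IL4c cells.

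Of 15 adaptors and kinase scaffolds 3 rose and 1 fell in TG, and 6 rose and 2 fell in IL4c cells. The shares of all tested genes were 6.73% and 4.52% in TG and 15.1% and 12.7% in IL4c cells. Azi2 and Tank, scaffolds that bind TBK1, rose by 0.51 ± 0.08 and 0.57 ± 0.13 in TG and by 0.77 ± 0.08 and 1.23 ± 0.13 in IL4c cells. The ubiquitin ligase Traf3 was the other gene that rose in TG, by 0.60 ± 0.14. Traf2 had 0.55 in TG (adjusted p = 0.0537) and rose by 1.26 ± 0.16 in IL4c cells. Sike1, an inhibitor of IKK epsilon, fell by 0.31 ± 0.07 in TG and by 0.33 ± 0.07 in IL4c cells, and Ripk1 fell by 0.26 in IL4c cells (adjusted p = 0.0328). The Ripk1 call held in 10 of 23 alternatives and the TG call of Sike1 in 13. Of 6 transcription factors 1 rose after each injection, Irf7, which went from 30.7 ± 15.9 to 824 ± 55.3 CPM in TG (log2 4.75 ± 0.35, adjusted p = 0.000160) and by 4.90 ± 0.35 in IL4c cells (adjusted p = 3.98e-05). Irf3, its constitutive relative, had −0.26 (adjusted p = 0.138) and −0.18 (adjusted p = 0.228), and Irf1 had 1.29 ± 0.47 in TG (adjusted p = 0.110) and 0.80 in IL4c cells (adjusted p = 0.234).

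Of 17 inhibitors 2 rose and 2 fell in TG, and 2 rose and 4 fell in IL4c cells. Among all tested genes these shares were 6.73% and 4.52% in TG and 15.1% and 12.7% in IL4c cells. Usp18, which removes ISG15 and blunts interferon receptor signalling, rose by 3.13 ± 0.25 and 3.92 ± 0.26, and the NOD-like receptor Nlrc5 by 1.21 (adjusted p = 0.0499) and 1.12 (adjusted p = 0.0358). The Nlrc5 calls held in 8 and 12 of 23 alternatives, against 23 and 23 for Usp18. Enpp1, the ectoenzyme that degrades the product of cGAS, fell by 1.35 ± 0.22 in TG, from 49.3 ± 10.3 to 19.4 ± 5.92 CPM, and fell by 1.93 ± 0.23 in IL4c cells, from 90.01 ± 11.9 to 23.6 ± 0.894 CPM. The ubiquitin ligase Itch, which marks MAVS for degradation, fell by 0.34 and 0.73, and its partner Pcbp2 by 0.44 in IL4c cells, as did Dnajc3, an inhibitor of PKR, by 0.40. The TG call of Itch held in 15 of 23 alternatives and that of Dnajc3 in 12. Of 10 nucleases and RNA editing genes 2 rose in TG, 3 rose in IL4c cells and 0 fell. Adar, which edits double-stranded RNA, rose by 1.04 ± 0.11 and 1.41 ± 0.11, Rnaset2b by 0.86 (called in 15 of 23 alternatives) and 1.58, and the mitochondrial RNA nuclease Pnpt1 by 0.53 in IL4c cells.

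**Figure D4:**
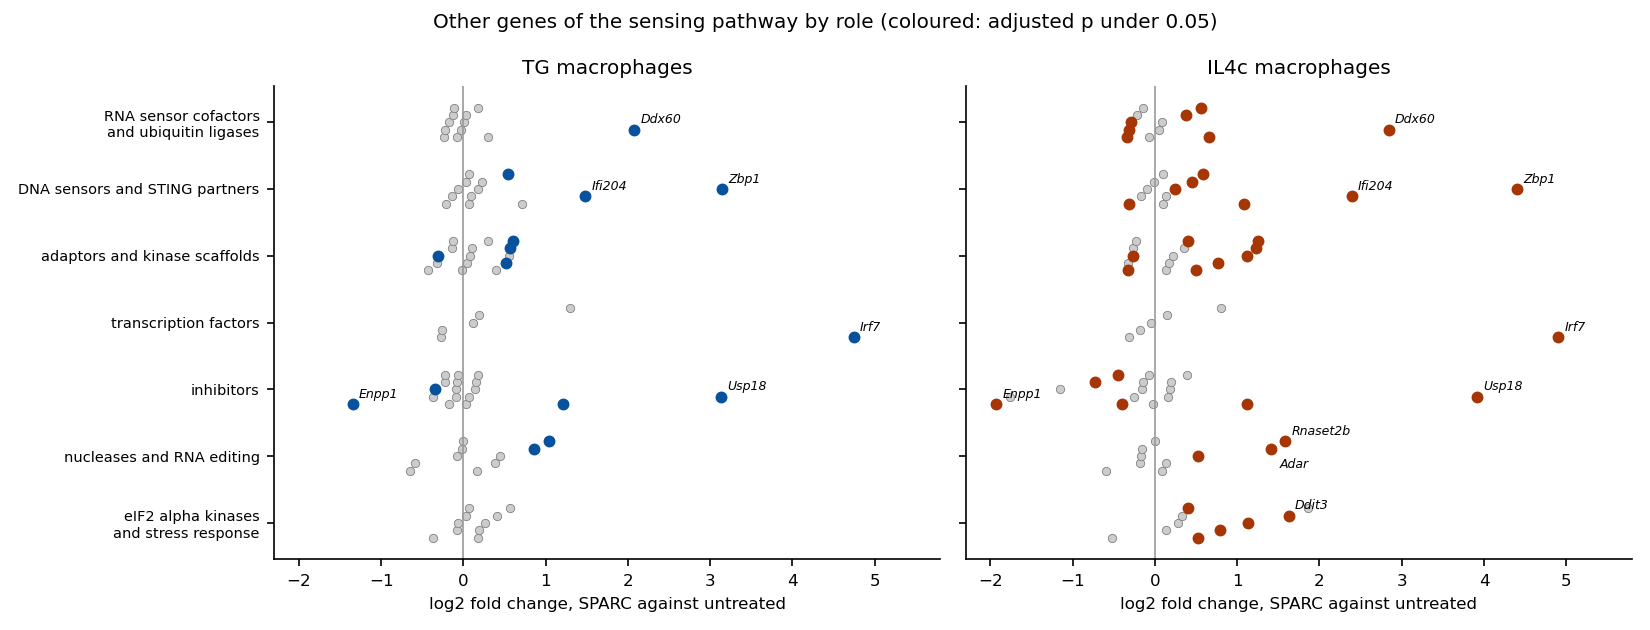
Log2 fold change of SPARC against untreated wells for 83 other pathway genes in 7 roles, in TG (left) and IL4c (right) macrophages; each point is a gene, coloured where the adjusted p was under 0.05, with names for called values beyond 1.3. Irf7, Zbp1 and Usp18 lie farthest to the right in both, Enpp1 is the called gene farthest to the left, and called eIF2 alpha genes appear only on the IL4c side. Over all tested genes 11.3% were called in TG and 27.8% in IL4c cells.

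Fewer of the 10 genes passed between the injections than between SPARC and untreated wells. In untreated wells 0 were higher and 2 lower in IL4c than in TG cells, where 10.2% of all tested genes were higher and 10.8% lower (21% either way). Tmem173 was lower by 0.96 ± 0.30 on the log2 scale (log2 fold change −0.96, adjusted p = 0.0442), with IL4c replicate 3 at 18.6 CPM inside the TG range. Tbk1 was lower too (log2 fold change −0.25 ± 0.08, adjusted p = 0.0498), with no overlap, as held for 39% of all tested genes. The Tmem173 call held in 9 of 23 alternatives (adjusted p 0.0133 to 0.1497) and the Tbk1 call in 7 of 23 (adjusted p 0.00509 to 0.354). Leaving out 1 library ended the Tbk1 call for 11 of the 12 libraries, all but TG untreated replicate 1, and the Tmem173 call for 9, all but TG untreated 3, TG SPARC 1 and IL4c untreated 3. With total-count scaling 4 of the 10 were lower, where the calls over all tested genes split as 1154 higher and 2790 lower against 1548 and 1649. Without both TG libraries numbered 1, Tmem173 had −0.60 (adjusted p = 0.0936). With the replicate number as a block shared by both injections it had −0.98 (adjusted p = 0.0626). Trex1 had −0.04 ± 0.33 (adjusted p = 0.948), but without that pair it was higher in IL4c cells by 0.59 (adjusted p = 0.00821, range over the alternatives 0.00821 to 1.00; adjusted p = 0.0121 without TG untreated replicate 1 alone). Mb21d1 had −0.58 ± 0.22 (adjusted p = 0.0919) with all libraries, where the groups did not overlap, and −0.68 (adjusted p = 0.0470) without that pair. It passed as lower in 3 of 23 alternatives (adjusted p 0.0461 to 0.265).

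With SPARC 1 gene was higher and 0 lower in IL4c than in TG cells, where 10.9% of all tested genes were higher and 10.1% lower (21% either way). That gene was Ifih1, at 0.43 ± 0.13 (adjusted p = 0.0449, called in 10 of 23 alternatives, adjusted p 0.00775 to 0.386), and the call ended for 8 of the 12 libraries when left out, all but IL4c SPARC 1 and the TG untreated ones. Ddx58 had 0.65 ± 0.28 (adjusted p = 0.122), and 0.84 (adjusted p = 0.00115) without both TG libraries numbered 1, over a range of 0.00115 to 0.300. Tmem173 had −0.91 ± 0.30 (adjusted p = 0.0534), again lower in IL4c cells, and −1.03 (adjusted p = 0.0138) without that pair, over a range of 0.0138 to 0.163. Ddx58 also passed without TG untreated replicate 1 alone (adjusted p = 0.0107), and Tmem173 without TG untreated 1, TG SPARC 1 or IL4c untreated 3 (0.0229 to 0.0473). Ddx58, Ifih1, Tmem173 and Ikbke did not overlap between the injections here, as held for 41.4% of all tested genes. The 4 groups share libraries between these comparisons and the SPARC comparisons above.

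**Figure D5:**
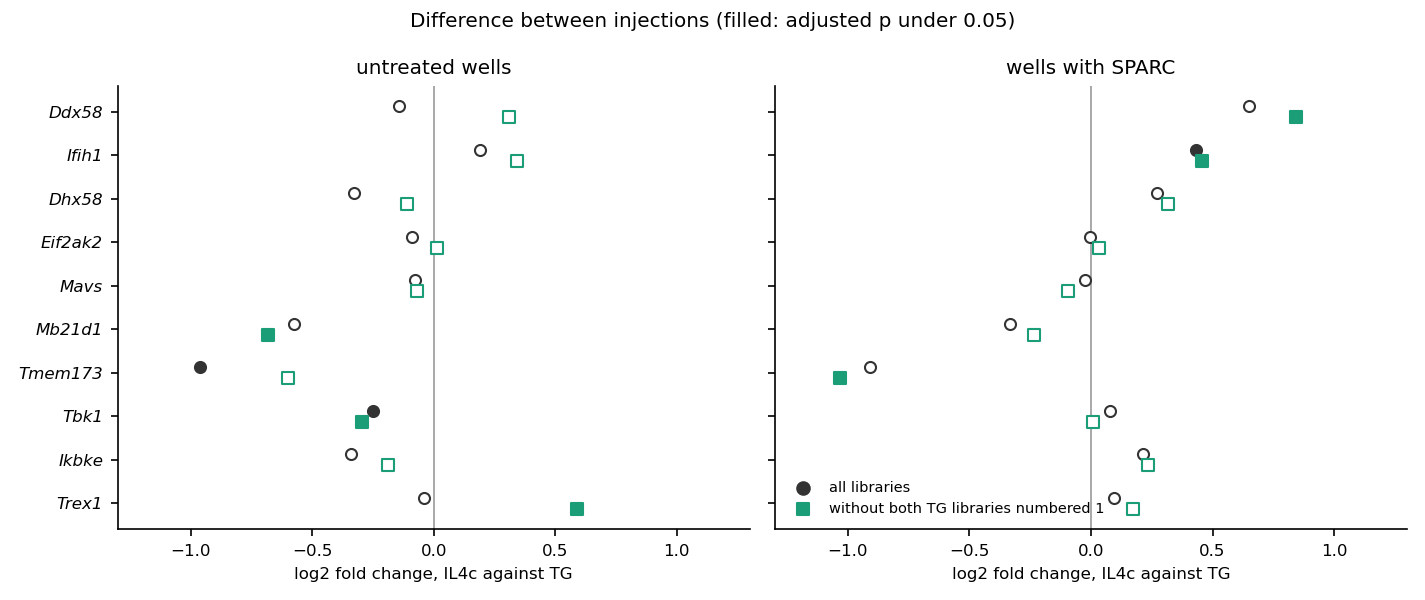
Log2 fold change of IL4c against TG cells for the 10 genes, in untreated wells (left) and with SPARC (right), with all libraries (circles) and without both TG libraries numbered 1 (squares); filled symbols passed at an adjusted p under 0.05. In untreated wells Trex1 moves from −0.04 to 0.59 and Tmem173 from −0.96 to −0.60 when the pair is left out.

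Of the 83 other genes, 8 were higher and 11 lower in untreated IL4c than TG cells, and 12 higher and 9 lower with SPARC. Over all tested genes 10.2% were higher and 10.8% lower in untreated wells and 10.9% and 10.1% with SPARC, so these counts are near the background. Of the genes named above, Itch (0.55), Enpp1 (0.87), Pcbp2 (0.67), Usp18 (0.83), Rnaset2b (0.73) and Prkra (0.35) were higher in untreated IL4c cells, and Dhx9 (−0.40), Sike1 (−0.21) and Irf3 (−0.34) were lower. The Sike1 call held in 3 of 23 alternatives, that of Irf3 in 11 and that of Rnaset2b in 12. With SPARC Ddit3 (2.39, adjusted p = 0.00169), Usp18 (1.62), Rnaset2b (1.45), Atf4 (1.26), Ppp1r15a (1.09), Irf7 (1.02), Nck1 (0.59), Tank (0.48), Pcbp2 (0.40) and Azi2 (0.29) were higher. There Irf1 (−1.59), Dhx9 (−0.58), Stim1 (−0.36) and Sike1 (−0.23) were lower. Of these, the Sike1 call held in 6 of 23 alternatives, that of Irf7 in 12, and those of Irf1 and Azi2 in 13.

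The log2 response to SPARC was more positive in IL4c than in TG cells for each of the 10 genes, by 0.05 to 0.80 with a median of 0.24, but the difference passed for 0 of 10, as for 0% of all tested genes. At an unadjusted p under 0.05 in the edgeR fit it was 3 of 10, where 10.6% of all tested genes reached that, and DESeq2 called 0 of the 10 and 171 higher and 193 lower genes in all. The 3 were Ikbke with 0.55 ± 0.18 (95% interval 0.14 to 0.96, adjusted p = 0.317), Tbk1 with 0.33 ± 0.11 (0.08 to 0.57, adjusted p = 0.327) and Dhx58 with 0.60 ± 0.25 (0.03 to 1.16, adjusted p = 0.442). With the replicate block 1.5% of all tested genes passed as higher and 1.6% as lower (3.1% either way), and 0 of the 10 did, with adjusted p of 0.0587 for Ikbke, 0.0712 for Tbk1 and 0.0839 for Ddx58. Among the other genes the block called Usp18 (0.78), Traf2 (0.71) and Traf3 (0.52) higher, beside the 2 stress genes above. This common sign did not hold for 4 of the 10 under other settings. Without both TG libraries numbered 1 the difference was −0.42 for Trex1 (adjusted p = 0.226), −0.43 for Tmem173 and −0.0254 for Mavs, and for Eif2ak2 it reached −0.0252 without IL4c SPARC replicate 2.

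For each gene the nearest profiles were sought among 8607 genes of at least 10 CPM, by the root mean square difference of log2 CPM, centred on each gene's own mean, over the 12 libraries. Nearest to Ddx58 were Ddx60 (0.20), Ifitm3 (0.23) and Pbxip1 (0.23). Nearest to Ifih1 were Trim30a (0.16), Gsap (0.20) and Parp12 (0.21). Dhx58 had Oas1a (0.16), Ifitm3 (0.26) and Xaf1 (0.26), and Trex1 had Sp100 (0.19), Pbxip1 (0.20) and Trim30a (0.22). Eif2ak2 had Daxx (0.11), Parp12 (0.14) and Parp9 (0.14).

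The kinases and adaptors had other neighbours. Tbk1 was nearest to Alg9 (0.08), Ifngr2 (0.08) and Tdrd7 (0.09), and Ikbke to genes that included Sltm (0.13) and Snx20 (0.14). Mavs had Dgkz, Hdac6 and Vps51 (0.06 each), Tmem173 had Pak1 (0.22), Ptpn6 (0.26) and Suv39h1 (0.28), and Mb21d1 had Plekha1, Stip1 and Pno1 (0.15 each). No gene of the 10 was among the 3 nearest of another. Within the 10, the closest pair was Tbk1 and Ikbke (0.20), then Ifih1 and Eif2ak2 (0.24), and the farthest was Dhx58 and Tmem173 (1.46). The distance is not scaled to how much a gene varied, so genes that varied little lie close. The root mean square of the centred profile itself was 0.33 for Tbk1, 0.31 for Ikbke and 0.11 for Mavs. It was 0.89 for Ifih1 and 0.73 for Eif2ak2. Ddx58 and Dhx58, at 1.15 and 1.31, were 0.31 apart.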

How the data were processed

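The 12 libraries are separate samples in 4 groups of 3 by injection and treatment, per the labels. The authors deposited a matrix of expected counts per gene, not scaled, of which 7.97% are not whole, and a matrix of FPKM values. Per the submitters' processing notes the tools included CASAVA, bcl2fastq 1.8.4, STAR and RSEM. Build, annotation and any use of strand by the counter: not given in the sources used here. Reads of overlapping genes on opposite strands therefore cannot be told apart. Positions come from GENCODE on GRCm38, which holds 98.9% of the identifiers once versions are dropped.

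After rounding, counts went into the quasi-likelihood test of edgeR 4.0.16 (R 4.3.3), with robust dispersion and TMM factors, in all 12 libraries and 4 groups without a replicate block. filterByExpr with a minimum count of 10 left 15232 genes, the residual degrees of freedom were 8 and the common biological coefficient of variation 0.308. SE is the log2 fold change over the root of F. The fit was tested on simulated data, where libraries varied independently around a common mean per gene, apart from genes given a set change. Such data hold neither the pairing by number nor the outlying TG pair numbered 1, so they cannot speak to those. The alternatives comprised scaling by RLE or by total count, DESeq2 1.42.0, dropping the filter, a strict one (5 CPM in at least 3), limma 3.58.1 on log2 FPKM with pseudocounts of 1 and 0.1 (genes of at least 1 FPKM in 3 libraries) or unfiltered, the compared groups alone, the replicate block, each library left out, and both TG libraries numbered 1 left out. The labels give groups the same replicate numbers. Within an injection, same-numbered libraries deviated together from their group means, with correlations of 0.277 to 0.707 in 6 of 6 pairs, so the numbers were read as pairing libraries within an injection, from the data. Libraries of unlike number within an injection gave −0.611 to 0.441, and across injections it was −0.162 to 0.234 for the same number, so numbers pair nothing there. The replicate block used the pairing within an injection for the SPARC comparisons and their difference. For comparisons between the injections it shared each number across both injections, which these correlations do not back. Replicates were not copies of one another, since chi-square over its degrees of freedom was 10.6 or more for every pair of them.

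The 10 genes, the pathway and marker lists and the rule for names were chosen with earlier results of these data known. The rule named all 10 genes, in each role up to 3 other genes with the smallest p in the SPARC comparisons and those called against most of their role, and the 3 nearest profiles, of which 1 is not reported here. Atf4, Nck1, Eif2ak3, Traf3, Pcbp2 and Dnajc3 fall outside it, having been picked once their values were known.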

Additional observations from a re-analysis of the deposited data

How the results depend on the processing

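SPARC calls of Ifih1, Dhx58 and Eif2ak2 in TG and of Ddx58, Ifih1, Dhx58, Eif2ak2, Tbk1, Ikbke and Trex1 in IL4c cells held in 23 of 23 alternatives. With 3 libraries a group, small changes of Mavs or Tmem173 could not be told from the spread, and calls between the injections were close to the threshold. The cause of the changes below was not tested. The replicate block changed no call of the 10 genes other than those of Mb21d1 in TG and Tmem173 between untreated wells. This block paired by number within an injection for the SPARC comparisons and their difference. Between the injections it fitted each number as an effect shared by both injections, although the numbers paired nothing across them.

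In TG cells with SPARC, the count of the 10 genes that rose was 3 with the compared groups alone and 5 to 6 over the leave-one-out fits. The other pathway genes that rose were 5 with the groups alone and 19 with the replicate block. Those that fell were 1 with no filter on counts or on FPKM, 0 with the groups alone, 8 with the block, 6 without both TG libraries numbered 1 and 1 to 5 leaving out 1 library. In IL4c cells those that fell were 6 with no count filter, 5 with unfiltered FPKM, 18 with the block, 17 without the TG pair and 4 to 12 leaving out 1 library, and those that rose 17 to 29. Tmem173 had 0.27 in TG without the TG pair and −0.38 to 0.14 leaving out 1 library, and −0.34 to 0.17 in IL4c cells.

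Between untreated wells, the count of the 10 genes lower in IL4c cells was 1 with RLE, DESeq2, the strict filter, unfiltered FPKM and the replicate block, 4 with total-count scaling, 0 with no filter and with the groups alone, and 0 to 1 leaving out 1 library. The count higher was 1 without the TG pair and 0 to 1 leaving out 1 library. Other pathway genes that were higher numbered 5 with total counts and with a pseudocount of 1, 16 with DESeq2, 14 with the strict filter, 4 with a pseudocount of 0.1, 3 with unfiltered FPKM, 18 without the TG pair and 2 to 13 leaving out 1 library. Those lower numbered 18 with total counts, 4 with no filter, 20 with both pseudocounts, 5 with the groups alone and 2 to 12 leaving out 1 library. Trex1 had 0.0105 with no filter, 0.00501 with a pseudocount of 1 (filtered or not), 0.01003 with 0.1, 0.00271 with the groups alone, 0.0496 with the replicate block, 0.59 without the TG pair and −0.28 to 0.59 leaving out 1 library. Without the TG pair Ddx58 had 0.31 and Eif2ak2 0.0148, and leaving out 1 library they had −0.31 to 0.31 and −0.16 to 0.0153.

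Between wells with SPARC, the count of the 10 genes higher was 0 with total counts, with the 3 FPKM settings and with the groups alone, 2 without the TG pair and 0 to 2 leaving out 1 library. The count lower was 1 with DESeq2, a pseudocount of 0.1, the groups alone and without the TG pair, and 0 to 1 leaving out 1 library. Other pathway genes higher were 6 with unfiltered FPKM, 20 without the TG pair and 6 to 16 leaving out 1 library, and those lower 4 with no filter on counts or FPKM and 4 to 11. Eif2ak2 had 0.0216 with RLE and DESeq2, 0.00568 with no filter, 0.0312 with the strict filter, 0.0323 without the TG pair, and −0.11 to 0.10 leaving out 1 library. Mavs had 0.00936 with the strict filter and −0.0943 to 0.0665 leaving out 1 library, and Trex1 −0.0117 to 0.18.

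For the difference of the responses, DESeq2 called 2 other pathway genes higher and 2 lower, the block 5 higher, the fit without the TG pair 6 and 6, and the leave-one-out fits 0 to 1 each way. It could not be fitted with the compared groups alone. Trex1 had −0.0233 with the block, −0.42 without the TG pair and −0.48 to 0.39 leaving out 1 library. Without the TG pair Mavs had −0.0254 and Tmem173 −0.43, and leaving out 1 library Mavs had −0.0441 to 0.11, Tmem173 −0.30 to 0.38 and Eif2ak2 −0.0252 to 0.18.

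Over all tested genes, total-count scaling gave 758 rises and 938 falls with SPARC in TG, against 1025 and 689, and 1154 higher and 2790 lower between untreated wells, against 1548 and 1649. It moved the median of all genes in the latter comparison from −0.05 to −0.16 on the log2 scale. The compared groups alone called 367 rises and 138 falls in TG, and the block 2175 and 1990. DESeq2 called 1118 falls there, unfiltered FPKM 495 rises and the fit with no count filter 365 falls. In IL4c cells (2301 rises, 1936 falls) the block called 3474 and 3406, and the fit without the TG pair 3145 falls. Between untreated wells the fit without the pair called 2953 higher and 3049 lower, a pseudocount of 1 gave 933 and 2422, no count filter 922 lower, and the groups alone 597 lower. With SPARC (1664 and 1532) the fit without the pair called 2731 and 2856. Leaving out 1 library gave 475 to 1279 rises and 262 to 816 falls in TG, 1407 to 2789 and 1100 to 2389 in IL4c cells, 853 to 2316 higher and 523 to 2246 lower between untreated wells, 1035 to 2236 and 665 to 2057 with SPARC, and 0 to 117 and 0 to 161 for the difference.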
